A study of Rattus norvegicus with 19 samples.

Results

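Deep motor cortex was compared 49 days (7 weeks) after a spinal cord lesion with control motor cortex, on 7 of the 19 arrays of a time course. The 3 day 49 arrays and the 4 control arrays were taken by their sample labels, and all 31042 probe sets other than the manufacturer's control probe sets were tested. Every array carried RNA of adult female Fischer 344 rats. The lesion was a wire knife cut of the dorsal columns at cervical segment 3, made with the aim of severing the whole dorsal funiculus, and the tissue was the lower part of forelimb and hindlimb motor cortex, the depth at which layer V lies. Control samples are labelled as time 0, and the labels used here give neither a laminectomy nor a matched age for the control rats. Time after lesion and age therefore cannot be told apart at day 49. The labels name separate samples but not separate animals, so the p-values measure the spread between these samples, which may be partly technical. The other 12 arrays, 3 each at days 1, 3, 7 and 14, shared in the estimate of the spread and served as a second reference.

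Corticospinal neurons are large pyramidal cells of layer V whose axons run through the brainstem to the spinal cord. In the rat most of these axons travel in the dorsal columns, so a cervical cut severs them far from their cell bodies. Cut neurons can switch on injury genes such as the transcription factors Atf3 and Jun and neuropeptides such as galanin, and a question of such time courses is whether these genes are still raised after weeks. The dissected tissue also holds interneurons, glia, vessels and other pyramidal cells. In such bulk samples fewer cells of a type and less RNA per cell cannot be told apart.

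The dissected layer was checked by its markers. Of 23 measured markers of layer V and corticospinal neurons, 17 had a signal above that of the median probe set, a share near that of all genes (9559 of 14217), and 10 of 18 striatum markers did. Pcp4, a calmodulin regulator of layer V cells, had a control mean of 12.70 ± 0.05 (SD, n = 4) on the log2 scale on which all signals are given. Etv1, a layer V transcription factor, had 11.08 ± 0.10, and Crym, a thyroid hormone binding protein of corticospinal neurons, had 8.06 ± 0.11. Fezf2, a transcription factor of subcerebral neurons, was dim on its probe set, at 4.27 ± 0.18, and so was the astrocyte water channel Aqp4, at 3.77 ± 0.10. The beta globin Hbb, a red cell transcript, was at 10.75 ± 0.68 in control and 10.43, 10.65 and 10.25 on the day 49 arrays, so blood RNA was present in both groups.

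The 3 day 49 arrays were not alike in quality. The median correlation with the other arrays was 0.997 for replicate 1, 0.968 for replicate 2 and 0.994 for replicate 3. Apart from day 49 replicate 2 and day 14 replicate 2, the 17 remaining arrays lay between 0.994 and 0.997. The interquartile range of each array's differences from the all-array median, a measure of spread that is small on a typical array, was 0.625 on the log2 scale in replicate 2, above the range of 0.0947 to 0.2 in those 17. Replicate 3 had the widest spread of the 17. The beta-actin difference between 3' and 5' probe sets, which grows with RNA breakage, was 1.10, 0.845 and 1.29 in replicates 1, 2 and 3. Replicate 2 thus lay just under and replicate 3 at the top of the range of the 17 arrays, 0.877 to 1.29. With this measure as a covariate, limma called 0 probe sets between day 49 and control, and 8250 had an unadjusted p under 0.05.

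**Figure D1:**
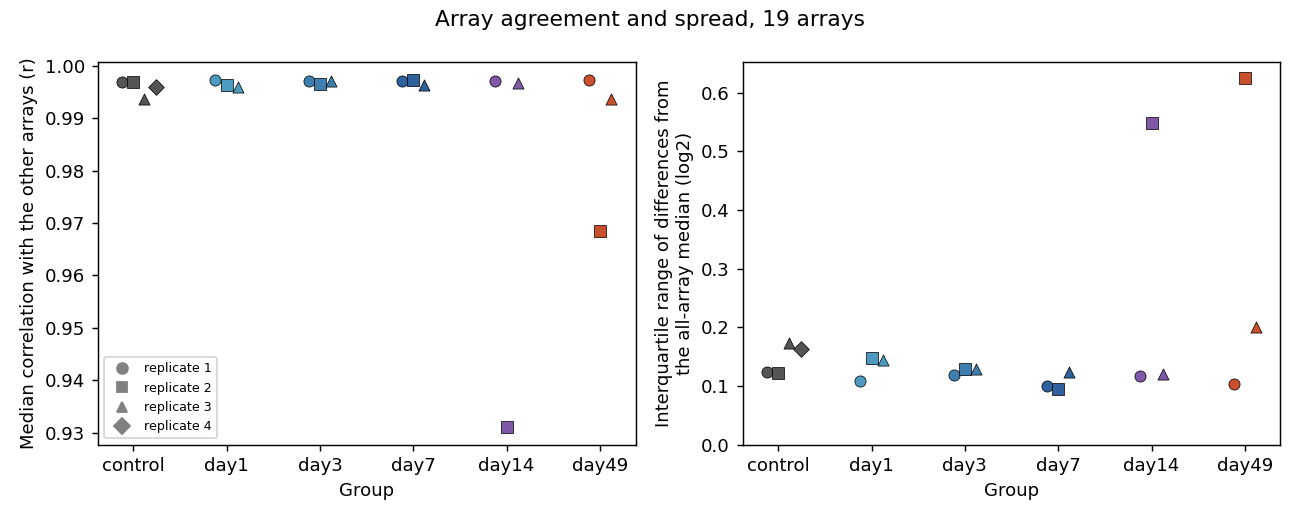
Median Pearson correlation of each array with the other arrays (left) and interquartile range of its log2 differences from the all-array median (right), by group, with 1 symbol per array and its shape giving the replicate number. Day 49 replicate 2 (0.968 and 0.625) and day 14 replicate 2 (0.931 and 0.548) stand apart from the other 17 arrays.

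No transcript passed the test at day 49. In the limma fit of all 19 arrays with Benjamini-Hochberg adjustment, 0 of 31042 probe sets (0%) had an adjusted p under 0.05 for day 49 against control, and the smallest adjusted p was 0.306, shared by 2652 probe sets. At an unadjusted p under 0.05 there were 4783 probe sets (15.4%). Differences over 1 on the log2 scale were seen in 39 probe sets, the largest being 1.26, and the median standard error of a difference was 0.13. The few arrays limit the precision, and differences far above this median error also went uncalled, among them all 39 over 1 on the log2 scale. The absence of calls therefore does not show that no transcript changed. Without replicate 2 the count stayed at 0, with a smallest adjusted p of 1 and 1266 probe sets (4.08%) at an unadjusted p under 0.05. With day 14 replicate 2 left out as well, leaving 17 arrays, the count was again 0, the smallest adjusted p was 0.226, 3738 probe sets (12%) had an unadjusted p under 0.05, and the median standard error was 0.0899.

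The count of calls depended on which day 49 arrays were kept and on how they were weighted. When that array was left out, 2435 probe sets (7.84%) had an adjusted p under 0.05 in limma, 1396 (4.5%) higher and 1039 (3.35%) lower than control. Leaving out replicate 3 gave 0 calls (0%) and 6736 probe sets at an unadjusted p under 0.05. Array weights estimated by limma gave 6514 calls (21%), with 89.1% of the day 49 weight on replicate 3. In fits with a single day 49 array and without day 14 replicate 2, added after seeing the data, replicate 1 alone gave 0 calls (0%), replicate 2 alone 17474 (56.3%) and replicate 3 alone 2134 (6.87%). A lone array has no spread of its own and is assumed there to vary like the other groups, so these counts describe 1 array each.

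**Figure D2:**
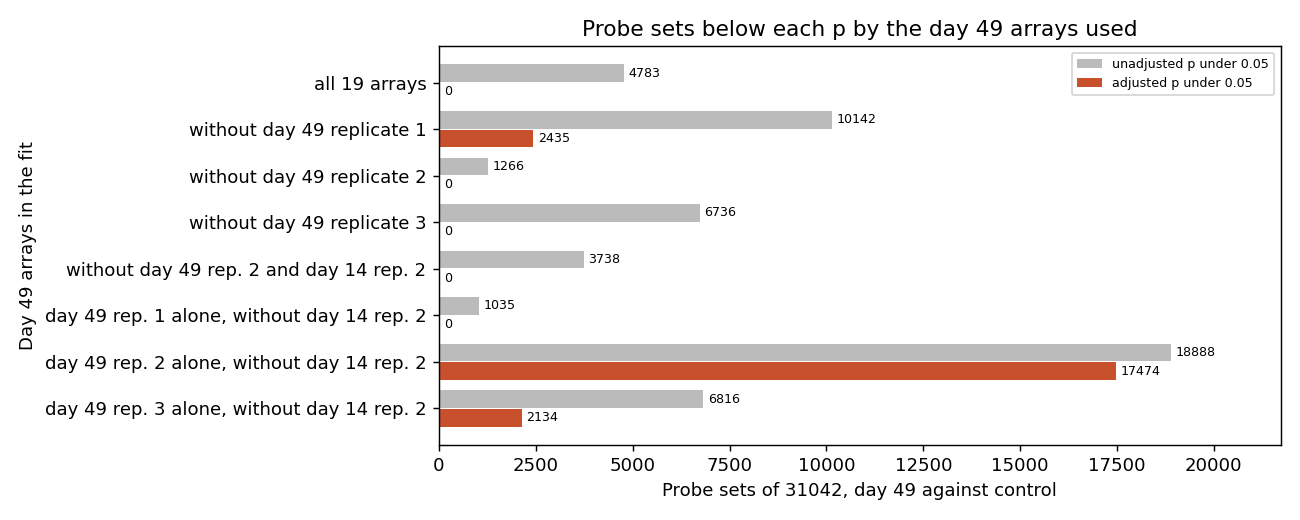
Number of the 31042 probe sets with an adjusted p under 0.05 (orange) and an unadjusted p under 0.05 (grey) for day 49 against control in limma, by the arrays kept. With all 19 arrays the counts are 0 and 4783; of the fits shown, only those without day 49 replicate 1, or with replicate 2 or 3 as the lone day 49 array, give adjusted calls.

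Replicate 1 was close to control across the whole array. Its difference from the control mean had an SD of 0.132 over probe sets and exceeded 1 on the log2 scale in 11 probe sets (0.0354%). Each control array, set against the mean of the other 3, had an SD of 0.141 to 0.254 and 19 to 270 such probe sets. Replicate 3 had an SD of 0.255 and 251 such probe sets (0.809%), about as far from the controls as control replicate 3 was from the other 3. Replicate 2 had an SD of 0.566 and 2569 such probe sets (8.28%). Across probe sets, and so with no independent points and a shared control mean, the differences of the 3 arrays correlated by 0.12 between replicates 1 and 2, 0.32 between 1 and 3, and 0.36 between 2 and 3. The departure of replicate 3 was also taken from the mean of the 15 arrays other than day 49 and day 14 replicate 2. Its correlation with the departures of single arrays outside day 49 ran from -0.44 (day 3 replicate 3) to 0.53 (day 1 replicate 3). With day 14 replicate 2 it was 0.49. The cause of these correlations was not tested.

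Among the 2435 probe sets called without replicate 1, that array had the same sign in 1601 (65.7%), with a median signed difference of 0.04, against 0.72 in replicate 2 and 0.31 in replicate 3, which had chosen them. All 3 arrays lay beyond the 4 controls in 680 of them (27.9%). The 3 differences share the control mean by which these probe sets were also chosen, so both shares are expected to be raised by the choice. The share expected from the choice alone was not computed, and no conclusion is drawn from either share. Over all probe sets the 3 day 49 arrays lay above all controls in 1636 (5.27%) and below all controls in 1491 (4.8%).

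The higher genes of smallest p lay above every control on all 3 arrays, by unlike amounts, with replicate 2 the farthest in all of them but Sorbs3. Chrm4, the muscarinic M4 acetylcholine receptor gene, read 3.98, 3.85, 3.82 and 3.78 on the control arrays and 4.14, 4.54 and 4.35 on the day 49 arrays. Each day 49 value lay above every control value, and the mean difference was 0.48 (SE 0.08; 1.40-fold; limma adjusted p = 0.306). Adcy10, the bicarbonate-sensitive soluble adenylyl cyclase gene, read 4.66, 4.73, 4.58 and 4.77 in control and 5.01, 5.31 and 5.01 at day 49, a difference of 0.42 (SE 0.08; adjusted p = 0.306). Slc26a5, which encodes the hair cell motor protein prestin, read 3.41, 3.44, 3.37 and 3.31 in control and 3.65, 3.77 and 3.63 at day 49. All 3 arrays were again higher than all controls, by 0.30 on average (SE 0.06). The groups were separate in the same way for Tmem247, a transmembrane protein gene, at 0.51 (SE 0.11), and for Sorbs3, the gene of the adhesion adaptor vinexin, at 0.33 (SE 0.08). Chrm4, Slc26a5 and Tmem247 were dim, with mean signals at the 22.0, 6.8 and 15.5 percentile of all probe sets. Both other probe sets of Sorbs3 had the same sign.

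The leading lower genes were Ppic and Timp2, both with tight groups. Ppic, which encodes the protein-folding enzyme cyclophilin C, read 7.32, 7.31, 7.30 and 7.36 in control and 6.88, 6.90 and 6.94 at day 49. The 3 day 49 values differed by less than 0.1 from each other, and their mean was lower by 0.42 (SE 0.09; 1.33-fold; limma adjusted p = 0.306). Timp2, an inhibitor of matrix metalloproteinases, read 11.15, 11.15, 11.18 and 11.16 in control and 10.90, 10.81 and 10.93 at day 49, a difference of -0.28 (SE 0.06; 1.22-fold; adjusted p = 0.306). Its second probe set had the same sign. For both genes replicate 1, the array closest to control elsewhere, stood at least as far from the control mean as replicate 3 did.

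In other lower genes replicate 2 was the farthest from control. Cpne3, a calcium-dependent membrane-binding copine, read 7.43, 7.04, 7.02 and 7.41 in control and 6.75, 5.92 and 6.30 at day 49, a difference of -0.90 (SE 0.20) that was -0.70 in the 17-array fit. Serinc5, a membrane protein of the serine incorporator family, read 7.05, 6.88, 6.80 and 6.82 in control and 6.66, 5.54 and 6.18 at day 49, a difference of -0.76 (SE 0.17) that was -0.47 with 17 arrays. Bcl10, an adaptor of NF-kappaB signalling, differed by -0.31 (SE 0.07), or -0.24 with 17 arrays. In all 3 genes replicate 2 was the lowest of the 7 arrays and replicate 1 the nearest to control, and the adjusted p was 0.306 for each.

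**Figure D3:**
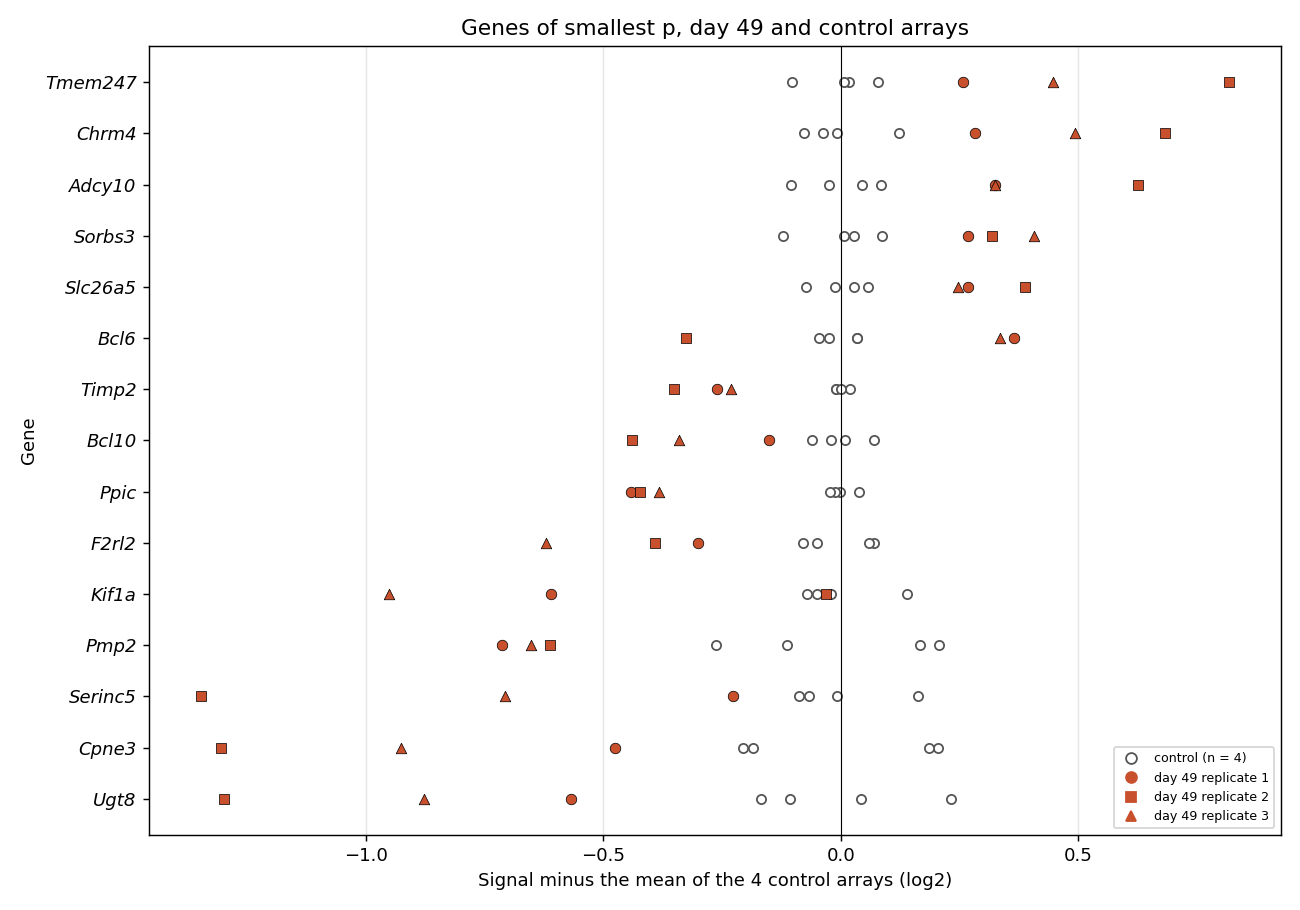
Signal of each control array (open circles, n = 4) and each day 49 array (filled, shape by replicate) minus the control mean, log2, for the genes of smallest p with all 19 arrays or with 17. The 3 day 49 arrays lie on 1 side of all controls except in Bcl6 and Kif1a, where replicate 2 does not follow replicates 1 and 3.

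Leaving out replicate 2 brought forward genes in which replicates 1 and 3 agreed. Bcl6, a transcriptional repressor, read 8.90, 8.84, 8.90 and 8.82 in control and 9.23 and 9.20 in replicates 1 and 3, but 8.54 in replicate 2. Its difference was 0.35 with 17 arrays (adjusted p = 0.226) and 0.13 with 19. Kif1a, a kinesin that carries synaptic vesicle precursors along axons, read 7.50, 7.31, 7.34 and 7.29 in control, 6.75 and 6.41 in replicates 1 and 3, and 7.33 in replicate 2. The difference was -0.78 with 17 arrays (adjusted p = 0.226) and -0.53 with 19, and of its 2 other probe sets only 1 had the same sign.

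Other genes of small p with 17 arrays were lower on all 3 day 49 arrays. Pmp2, a fatty acid binding protein of myelin-forming cells, read 9.40, 9.36, 9.08 and 8.93 in control and 8.48, 8.58 and 8.54 at day 49, a difference of -0.66 (SE 0.23; adjusted p = 0.306), and -0.68 with 17 arrays (adjusted p = 0.226). Ugt8, which makes the myelin lipid galactosylceramide, read 9.01, 8.82, 8.61 and 8.67 in control and 8.21, 7.48 and 7.90 at day 49, a difference of -0.92 (SE 0.41; adjusted p = 0.316), though its second probe set had the opposite sign. F2rl2, which encodes the thrombin receptor PAR3, was lower by 0.46 with 17 arrays (adjusted p = 0.226).

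The axotomy genes Atf3, Jun, Gal, Npy and Vip overlapped control at day 49, some of them with wide intervals. Atf3, a transcription factor induced in cut neurons, read 5.88, 5.84, 5.86 and 6.11 in control and 5.84, 5.59 and 6.28 at day 49. The groups overlapped, and the difference was -0.02 with a 95% interval of -0.84 to 0.80 in limma (adjusted p = 0.981), and 0.14 with 17 arrays. The 12 arrays of days 1 to 14 had a lowest Atf3 value of 6.36, a median of 7.16 and a highest of 8.64, so every day 49 array lay below all of them. The difference of day 49 from the mean of those 4 times was -1.41 (SE 0.32; unadjusted p = 0.000528; adjusted p = 0.279).

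The neuropeptide genes followed a later course than Atf3. Gal, which encodes galanin, read 6.70, 6.52, 6.85 and 6.60 in control, 8.46, 8.71 and 8.11 at day 14, and 6.58, 6.99 and 6.77 at day 49. The day 49 difference from control was 0.11, with a 95% interval of -0.45 to 0.67 (0.01 with 17 arrays), and that from the earlier times was -0.84 (SE 0.22; unadjusted p = 0.00178; adjusted p = 0.279). Npy, the neuropeptide Y gene, had means of 6.34 in control and 8.03 at day 14 (8.15 without day 14 replicate 2). It read 6.14, 7.01 and 6.81 at day 49, a mean 0.31 above control. Its 95% interval of -0.56 to 1.18 was wide, and the difference was 0.13 with 17 arrays. Vip, the vasoactive intestinal peptide gene, had a control range of 3.77 to 4.05 and a day 14 mean of 6.70 (6.78 without day 14 replicate 2). It read 3.80, 4.20 and 4.88 at day 49. Its difference from control was 0.39, with a 95% interval of -0.69 to 1.48, and 0.44 with 17 arrays. Replicates 2 and 3 lay above all controls in Npy and Vip while replicate 1 was under the control mean, and the differences from control had adjusted p of 0.681 and 0.679.

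Csrp3, a muscle LIM protein gene named here after its values were seen, had a day 14 mean of 6.17 against a control mean of 4.70. Without day 14 replicate 2 the day 14 mean was 6.68. At day 49 it read 4.70, 5.30 and 4.70, so 2 of 3 arrays were at the control mean. Jun, the transcription factor of the neuronal injury response, read 9.45, 9.17 and 9.65 at day 49 against a control mean of 9.59 ± 0.19 (SD, n = 4), a difference of -0.17 (adjusted p = 0.458), or -0.04 with 17 arrays. Gap43, a growth cone protein, differed by -0.06 (95% interval -0.22 to 0.10), and Sprr1a, another gene of regenerating neurons, by 0.23 (-0.17 to 0.63), or 0.12 with 17 arrays. Gfap, the intermediate filament of reactive astrocytes, differed by 0.01 (-0.31 to 0.33).

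**Figure D4:**
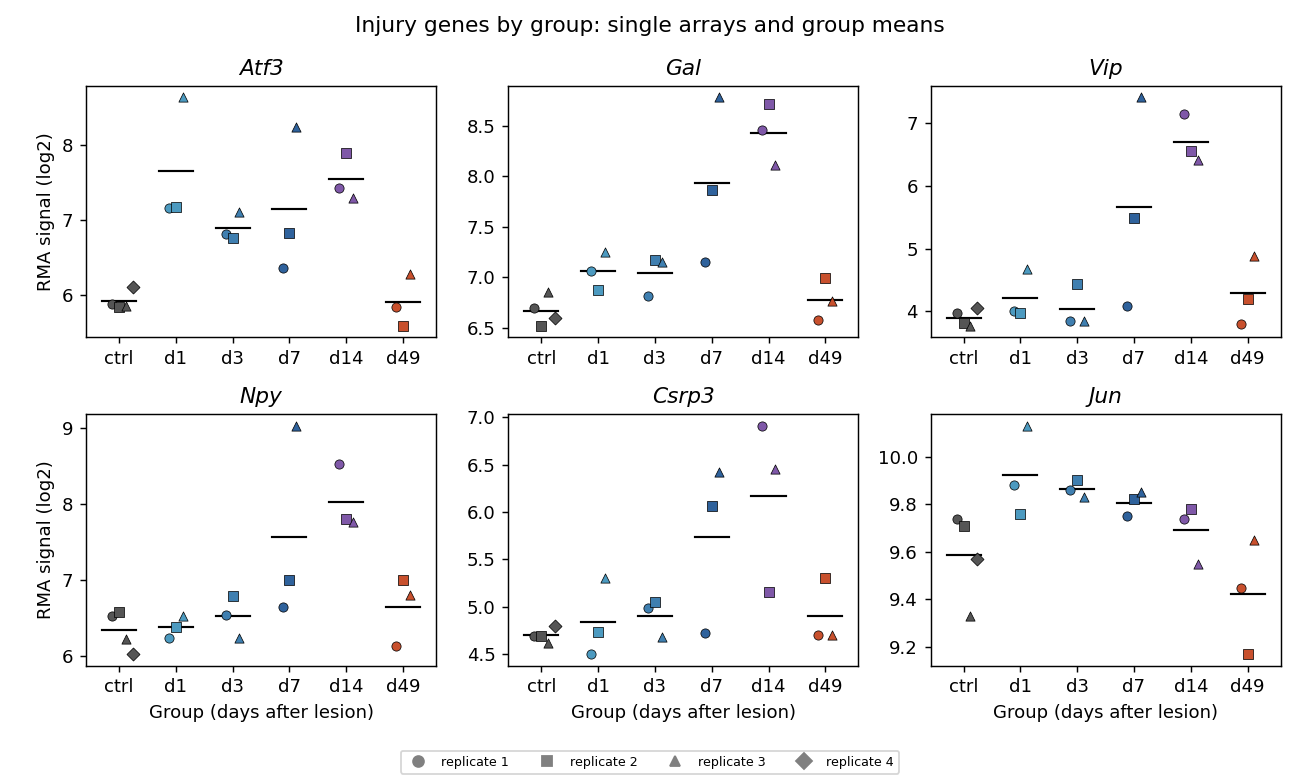
Log2 signal of Atf3, Gal, Vip, Npy, Csrp3 and Jun on each of the 19 arrays by group, with group means as lines and symbol shape giving the replicate number; vertical axes differ between genes. Atf3 at day 49 (5.59 to 6.28) lies below all 12 earlier lesion arrays (6.36 to 8.64) and around the controls.

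Set against the mean of days 1, 3, 7 and 14, day 49 again gave 0 of 31042 called probe sets (0%), with a smallest adjusted p of 0.279 and 5381 probe sets (17.3%) at an unadjusted p under 0.05. With 17 arrays there were 0 calls, a smallest adjusted p of 0.161 and 2423 probe sets (7.81%). This comparison and the one with control share the day 49 arrays. Hacl1, a peroxisomal lyase that shortens branched fatty acids, had the smallest p of the lower genes. It read 7.42, 7.63, 7.49 and 7.57 in control, between 7.52 and 7.78 with a median of 7.59 on the 12 earlier arrays, and 7.32, 7.15 and 7.24 at day 49. The day 49 arrays were thus the 3 lowest of all 19, by 0.36 from the earlier mean (SE 0.06; adjusted p = 0.279) and by 0.29 from control (adjusted p = 0.306).

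Other genes also had all day 49 arrays below all 12 earlier arrays. Pdpn, which encodes the membrane glycoprotein podoplanin, read 9.29, 9.05 and 9.21 at day 49 and at least 9.43 on the earlier arrays, a difference of -0.42 (SE 0.09). Flrt3, an adhesion protein of growing neurites, read 6.65, 6.37 and 6.71 against at least 6.95, a difference of -0.63 (SE 0.13). Both were also below all 4 controls. Timp2, described above, had a lowest earlier value of 10.94, just over its highest day 49 value of 10.93. Over all genes, 83 (0.584%) lay below and 28 (0.197%) above all 12 earlier arrays on all 3 day 49 arrays.

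Adamts5, a protease that cleaves the matrix proteoglycan aggrecan, differed from the earlier mean by -0.75 (SE 0.15; adjusted p = 0.279), or -0.45 with 17 arrays. Its difference from control was -0.59, or -0.30 with 17 arrays, and its values of 7.66, 6.70 and 7.48 at day 49 lay below all controls but not below all earlier arrays. Crabp2, a retinoic acid binding protein, was lower than the earlier mean by 0.42 (SE 0.08) and overlapped control. Its highest values had been those of day 1, with a mean of 8.55. Chrm4, Adcy10 and Slc26a5 were the leading genes above the earlier mean, by 0.36, 0.33 and 0.24. Their 3 day 49 arrays lay above all other arrays, narrowly in Adcy10 and by less than the rounding of the values in Slc26a5. Adcy10 and Slc26a5 were already above control at day 14, with means of 4.94 against 4.69 and 3.56 against 3.38. Without day 14 replicate 2 these day 14 means were 4.93 and 3.53, and the day 49 means were 5.11 and 3.68. Chrm4 was near control at day 14, at 3.89 against 3.86. C2cd4b was higher than the earlier mean by 0.27 (SE 0.06), and Rem2, a small GTPase that inhibits calcium channels, by 0.26 (SE 0.06), both with day 49 values overlapping control.

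In 34 lists of genes chosen by role, with 878 measured genes, 0 members passed the adjusted threshold at day 49. Over all 14217 genes the median difference from control was -0.03, 6320 were above 0, 1957 (13.8%) had an unadjusted p under 0.05, and all 3 day 49 arrays lay above all controls in 588 (4.14%) and below them in 634 (4.46%). On the single day 49 arrays the median over all genes was 0.00, -0.07 and 0.01 in replicates 1, 2 and 3, against -0.02 to 0.02 on the control arrays. List medians ran from -0.19 to 0.14, and only 4 of the 34 were over 0.1 from 0. With 17 arrays they ran from -0.09 to 0.09, none being over 0.1 from 0, and the interferon and blood cell lists at the extremes moved from -0.19 to -0.08 and from 0.14 to 0.05. Of 38 regeneration-associated genes, 17 were above 0, the median was -0.02, 5 had an unadjusted p under 0.05, and Flrt3 alone was separate from the controls. Against the earlier times 26 of these 38 were below 0 with a median of -0.09, and 9 had an unadjusted p under 0.05, all 9 lower. That share, 23.7%, stood beside 17.7% of all genes in both directions and 10.4% lower. The list was chosen with earlier results of these data known, and it holds genes such as Atf3 and Gal that were high at earlier times. Lower values at day 49 were thus partly built into the list, and no conclusion is drawn from this share.

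Markers of the injured cell type were mixed. Of 23 layer V and corticospinal markers, 10 were above 0 and the median was -0.01. Groups were separate in 4 (17.4%), 3 higher and 1 lower, beside 8.6% of all genes. Crym read 8.15, 8.17 and 7.94 in control replicates 1, 2 and 4, lay between these in replicate 3, and read 7.85, 7.65 and 7.89 at day 49. It was below all controls on every day 49 array, by 0.27 on average (SE 0.08; adjusted p = 0.306), though replicate 3 was within 0.1 of the lowest control. Fezf2, Pcp4 and Igfbp4 were above all controls, by 0.31, 0.16 and 0.23, but in Fezf2 replicate 3 equalled the highest control after rounding (4.39) and the difference was 0.14 with 17 arrays. Bcl11b, the layer V transcription factor Ctip2, read 5.70, 4.43 and 5.91 at day 49 against a control mean of 5.70 ± 0.18 (SD, n = 4). Its difference was -0.35 with replicate 2 and 0.10 without it. Of its other probe sets, 1 differed by -0.35 (unadjusted p = 0.0209) and kept -0.31 with 17 arrays, and the other differed by 0.18 and 0.03. Ldb2, a cofactor expressed in corticospinal neurons, was lower by 0.50 (SE 0.20) with replicate 2 and by 0.16 with 17 arrays.

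Neuronal cytoskeleton and transport genes leaned to lower values. Of 35 measured, 4 were above 0 and the median was -0.08 (9 and -0.04 with 17 arrays), but list medians on the single arrays were 0.03, -0.06 and -0.16 against a control range of -0.02 to 0.05. Kif3a, a kinesin motor subunit, read 8.55, 8.48, 8.37 and 8.44 in control and 8.31, 8.09 and 7.70 at day 49, below all controls by 0.43 (SE 0.12; adjusted p = 0.306). Stmn1, the microtubule regulator stathmin, was below all controls by 0.11. These were the only 2 of the 35 (5.71%) with separate groups, beside 8.6% of all genes. An unadjusted p under 0.05 in limma was also seen in 2 (5.71%), beside 13.8% of all genes. Presynaptic vesicle genes had a median of -0.09, or -0.06 with 17 arrays, and array medians of 0.03, -0.12 and -0.17. Rims1, a scaffold of the release site, read 5.09, 4.97, 4.84 and 5.33 in control and 4.84, 3.93 and 4.23 at day 49, a difference of -0.72 (SE 0.24), with replicate 1 level with the lowest control. In both lists replicate 1 lay on the other side of 0 from replicates 2 and 3.

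Receptor and channel genes differed in both directions. Of 33 synaptic receptors, 19 were above 0 and 9 (27.3%) had an unadjusted p under 0.05, beside 13.8% of all genes. All 3 day 49 arrays lay beyond all controls in 3 of them (9.09%), a share near the 8.6% of all genes. Gabrd, the delta subunit of extrasynaptic GABA-A receptors, read 6.71, 6.77, 6.70 and 6.71 in control and 6.89, 7.10 and 6.97 at day 49. All day 49 values were higher, by 0.26 on average (SE 0.07; adjusted p = 0.306), and both of its other probe sets had the same sign. The kainate receptor gene Grik1 read 8.83, 8.11 and 8.46 at day 49 and overlapped control, differing by -0.48 (SE 0.13) and by -0.30 with 17 arrays. Of 38 voltage-gated channel genes, 17 were above 0 and 10 (26.3%) had an unadjusted p under 0.05. Here too the share with all 3 day 49 arrays beyond all controls, 3 genes (7.89%), was near that of all genes. Cacnb4, a calcium channel beta subunit, read 5.24, 4.93, 5.04 and 5.33 in control and 4.81, 4.04 and 4.58 at day 49, below all controls by 0.66 (SE 0.16; adjusted p = 0.306) and by 0.44 with 17 arrays.

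Activity and trophic genes included Bdnf and Fos, whose brighter probe sets lay on opposite sides of control. Bdnf, the brain-derived neurotrophic factor gene, read 7.75, 7.65, 7.34 and 7.61 in control and 7.25, 6.70 and 7.23 at day 49, a difference of -0.53 (SE 0.16; adjusted p = 0.306), or -0.35 with 17 arrays. Its 3 day 49 values were below all controls and all 12 earlier arrays, whose lowest value was 7.31, but its second probe set had the opposite sign. Fos, an immediate early transcription factor, read 5.76, 5.77, 5.73 and 5.33 in control and 5.91, 7.43 and 6.10 at day 49. All 3 arrays were above all controls on that probe set, by 0.83 on average (SE 0.35; adjusted p = 0.308) and by 0.36 with 17 arrays. The second Fos probe set, of mean signal 5.83 beside 5.91, went the other way. It differed by -0.71 (limma unadjusted p = 0.0285), or -0.26 with 17 arrays, so the direction of Fos was not settled. Arc, a synaptic activity gene, read 5.44, 6.01 and 5.79 at day 49 and overlapped control in replicate 1. Fgfr1, a fibroblast growth factor receptor, was below all controls by 0.27 (SE 0.20).

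Interneuron markers had a median of 0.06, with 16 of 23 above 0 and array medians of 0.01, 0.24 and 0.07 against a control range of -0.07 to 0.07. Replicate 2 alone lay outside that range. All 3 day 49 arrays lay beyond all controls in 4 of the 23 (17.4%), 2 higher and 2 lower, beside 8.6% of all genes. Calb1, the calcium-binding protein calbindin, read 6.41, 6.11, 5.66 and 5.60 in control and 5.39, 4.16 and 5.48 at day 49, below all controls by 0.94 (SE 0.26; adjusted p = 0.306) and by 0.51 with 17 arrays. Cck, the cholecystokinin gene, read 5.80, 6.87 and 6.02 at day 49, above all controls by 0.58 (SE 0.20) and by 0.26 with 17 arrays. Gad2, a GABA-synthesizing enzyme, was above all controls by 0.42 (SE 0.14) and by 0.17 with 17 arrays, with 4.19 in both replicate 1 and control replicate 1 after rounding. The bright markers Pvalb and Sst differed by 0.01 and -0.01.

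The immune lists separated the day 49 arrays from each other more than from control, and some neuronal lists did so too. Voltage-gated channel genes, for example, had array medians of 0.08, -0.10 and -0.09 against a control range of -0.07 to 0.06. Interferon and antigen presentation genes had the lowest list median, -0.19, with 11 of 38 above 0 (14 with 17 arrays), but the array medians were -0.24, -0.27 and 0.09 against a control range of -0.05 to 0.05. Microglia and macrophage genes had a median of 0.01 (0.06 with 17 arrays), with array medians of -0.17, -0.07 and 0.28 against -0.02 to 0.03 in control. Replicate 3 was thus above and replicates 1 and 2 below the control range in both lists. Complement genes had array medians of -0.16, 0.12 and 0.14. Aif1, the microglial protein Iba1, read 6.19, 5.86 and 7.18 at day 49 against a control range of 6.25 to 6.87, and Cd74, the invariant chain of MHC class II, read 8.99, 9.66 and 9.71 against a control range of 9.17 to 9.42. The differences were -0.08 (SE 0.35) and 0.13 (SE 0.22), and 0.20 and 0.03 with 17 arrays.

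Single immune genes behaved alike on 2 or 3 arrays. RT1-A, a classical MHC class I gene named after its values were seen, read 5.70, 5.75, 5.74 and 5.57 in control and 5.77, 7.04 and 6.80 at day 49. Replicates 2 and 3 were over 1 log2 unit above control while replicate 1 was just above the highest control, and the difference was 0.85 (SE 0.24; adjusted p = 0.306), or 1.23 without replicate 1 (adjusted p = 0.0167) and 0.60 with 17 arrays (adjusted p = 0.327). MHC genes are near-identical copies of each other, so this probe set may read more than 1 of them. Gbp2, an interferon-induced GTPase, read 7.28, 7.22, 7.05 and 7.61 in control and 6.99, 6.31 and 6.93 at day 49, below all controls by 0.54 (SE 0.16; adjusted p = 0.306) and by 0.33 with 17 arrays. Ptges, the inducible prostaglandin E synthase, read 5.43, 5.54, 5.47 and 5.38 in control and 5.64, 6.06 and 5.92 at day 49, above all controls by 0.42 (SE 0.14; adjusted p = 0.306), with the same sign in its second probe set. Ccl7, a monocyte chemokine, was above all controls by 0.32 (SE 0.18).

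Matrix genes had the largest share of small p among the lists. Of 38 genes of perineuronal nets and matrix, 16 (42.1%) had an unadjusted p under 0.05, beside 13.8% of all genes, yet the median was -0.03 and 15 were above 0. Timp2, Adamts5, Col1a1 and Col1a2 were below and Adamts4 above all controls. These were 5 of the 38 (13.2%), beside 8.6% of all genes. Col1a1, a fibrillar collagen of meninges and vessels, read 8.47, 8.52, 8.05 and 8.02 in control and 7.76, 7.75 and 7.97 at day 49, a difference of -0.44 (SE 0.13; adjusted p = 0.306). Col1a2, its partner chain, was lower by 0.39 (SE 0.17). The list of meningeal and choroid plexus markers, which holds both collagens, had array medians of -0.21, 0.08 and 0.11 and a control range of -0.12 to 0.13. In that list 17 of 32 genes were above 0 (11 with 17 arrays), the mean signal was 6.87, 7.26 and 7.26 on the day 49 arrays and 7.05 to 7.27 on the control arrays, and the choroid plexus transthyretin gene Ttr read 6.13, 6.95 and 6.44 against a control mean of 6.18. The part of meningeal tissue in the collagen values was not tested. Adamts4, an aggrecanase like Adamts5, read 6.00, 5.83 and 5.83 against a highest control of 5.78.

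Glial markers were near control as lists. Myelin and oligodendrocyte genes had 15 of 30 above 0 and a median of -0.01. Groups were separate in 4 of the 30 (13.3%), 1 higher and 3 lower, beside 8.6% of all genes. Besides Ugt8, Gpr37, a receptor of oligodendrocytes, and Tspan2, a myelin tetraspanin, were below all controls by 0.48 and 0.22. Ermn, a cytoskeletal protein of oligodendrocytes, read 3.95, 4.09, 3.98 and 4.20 in control and 4.23, 4.57 and 4.36 at day 49, above all controls by 0.33 (SE 0.11; adjusted p = 0.306) and by 0.24 with 17 arrays, though both of its other probe sets had the opposite sign. Gpr37 was within 0.1 of the lowest control in replicate 1 and at 6.53 in replicate 2, and it was lower by 0.12 with 17 arrays. Mbp, myelin basic protein, differed by -0.07, with an SD of 0.07 in control and 0.13 at day 49. Its 95% interval of -1.37 to 1.22 was wide because the shared spread took in day 14 replicate 2, at 8.84. With 17 arrays, which leave that array out, the difference was -0.15 (SE 0.07). Of 24 astrocyte markers, 11 were above 0 and the median was -0.01, with separate groups in 3 (12.5%). Agt, the angiotensinogen gene made by astrocytes, read 4.81, 4.82, 4.83 and 4.92 in control and 5.01, 5.56 and 5.12 at day 49, above all controls by 0.38 (SE 0.12; adjusted p = 0.306) and by 0.22 with 17 arrays. Reactive astrocyte genes had a median of -0.05 against control. Against the earlier times 20 of 26 were below 0 with a median of -0.12, beside 7772 of 14217 genes and a median of -0.02. This list too was chosen with earlier results of these data known, so no conclusion is drawn from that share.

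Stress and housekeeping lists were mostly lower or level. Of 27 heat shock and chaperone genes, 6 were above 0 and the median was -0.11 (9 and -0.06 with 17 arrays), with array medians of 0.01, -0.16 and -0.12 against a control range of -0.02 to 0.06. Hspa9, Dnaja1, Dnaja2 and Fkbp4 were below all controls, 4 of the 27 (14.8%) beside 8.6% of all genes. Only 1 of the 27 (3.7%) had an unadjusted p under 0.05 in limma, beside 13.8% of all genes. Dnaja2, a co-chaperone, read 11.30, 11.34, 11.37 and 11.37 in control and 11.29, 10.90 and 11.12 at day 49, a difference of -0.24 (SE 0.08; adjusted p = 0.306), or -0.14 with 17 arrays, in which replicate 1 was level with the lowest control. Cholesterol synthesis genes had 4 of 19 above 0 and a median of -0.10, with array medians of -0.01, -0.09 and -0.15. Apoptosis and p53 genes had array medians of -0.07, -0.08 and -0.08, all below the control range of -0.02 to 0.02, and 9 of 22 were above 0. Over all genes the array medians were 0.00, -0.07 and 0.01, so replicate 2 was near its level over all genes. In the apoptosis list Fas, the death receptor, read 6.11, 5.98, 6.17 and 6.13 in control and 5.85, 5.23 and 5.93 at day 49, lower by 0.43 (SE 0.14; adjusted p = 0.306) and by 0.21 with 17 arrays. Of the 2 other Fas probe sets only 1 had the same sign. Bid, Casp9 and Birc2 were also below all controls, by 0.13, 0.21 and 0.24, and Casp9 by 0.12 with 17 arrays. Their unadjusted p in limma was 0.237, 0.0553 and 0.307. Separate groups were thus seen in 4 of the 22 (18.2%), beside 8.6% of all genes, and an unadjusted p under 0.05 in 3 (13.6%), beside 13.8%.

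Energy and protein synthesis genes showed little difference. Of 49 oxidative phosphorylation genes, 27 were above 0 and the median was 0.01, and of 29 ribosomal protein genes, 18 were above 0 and the median was 0.03. A few members of the first list stood out, though only 3 (6.12%) were separate from all controls, beside 8.6% of all genes. Sdha, a subunit of respiratory complex II, read 10.90, 10.93, 10.98 and 11.00 in control and 10.84, 10.71 and 10.48 at day 49, below all controls by 0.28 (SE 0.08; adjusted p = 0.306), and by 0.29 with 17 arrays. Uqcrc2, a core subunit of complex III, was below all controls by 0.17 (SE 0.07; adjusted p = 0.306). Cox5a, a subunit of cytochrome c oxidase, differed by 0.69 with overlapping groups (adjusted p = 0.307), by 0.26 with 17 arrays and by 1.00 without replicate 1. Cox6c, of the same complex, was above all controls by 0.06.

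**Figure D5:**
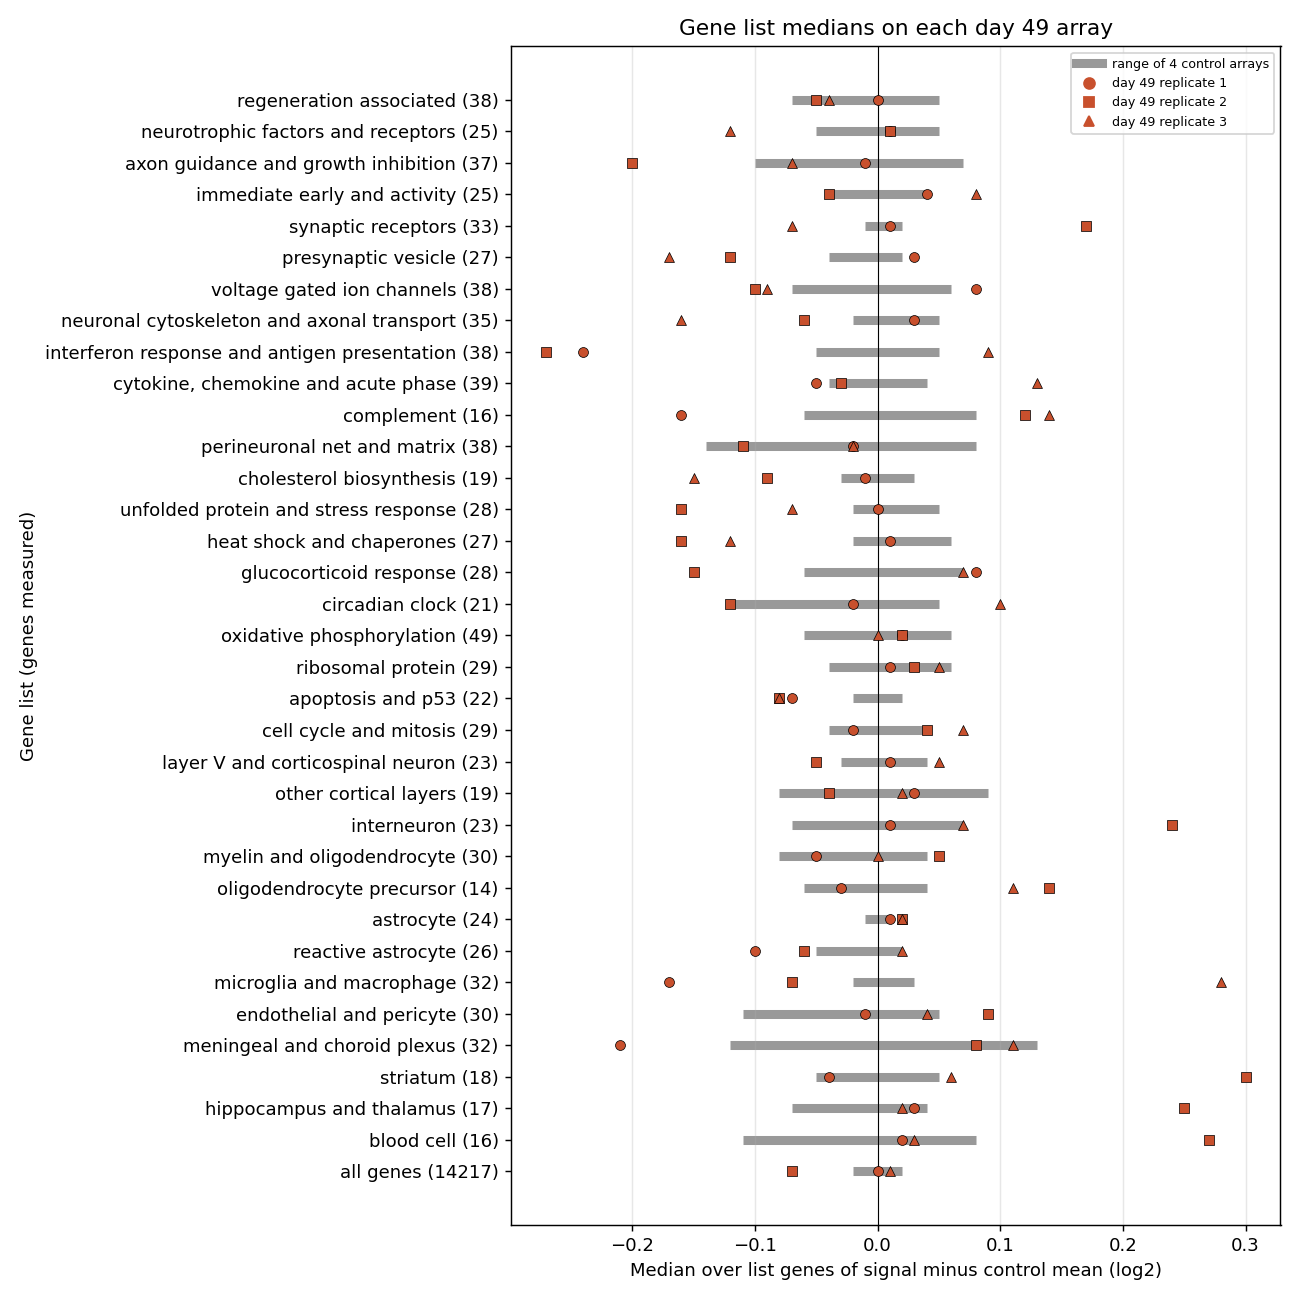
Median over the measured genes of each list (number in brackets) of the log2 signal minus the control mean, for each day 49 array (symbols by replicate), with the range of the 4 control arrays as a grey bar. The 3 day 49 arrays fall on both sides of the control range in the microglia, interferon and complement lists. They do so in other lists too, such as presynaptic vesicle genes and voltage-gated channels. In the apoptosis and p53 list they lie together below it, with replicate 2 (-0.08) near its median over all genes (-0.07).

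Some of the largest differences were in genes that also varied among controls. Lrrc8b, a volume-regulated anion channel subunit named after its values were seen, read 7.42, 7.04, 6.73 and 7.50 in control and 6.80, 4.92 and 6.06 at day 49, a difference of -1.25 (SE 0.42; adjusted p = 0.306). Control replicate 3 lay below day 49 replicate 1. Syt1, the calcium sensor of vesicle release, read 7.50, 7.08, 6.29 and 7.25 in control and 6.74, 5.38 and 5.75 at day 49, a difference of -1.07 (SE 0.37), again with control replicate 3 lowest of its group. Necab1, a neuronal calcium-binding protein, read 7.80, 7.73, 7.38 and 8.21 in control and 7.26, 6.36 and 6.40 at day 49, and its groups did not overlap, with a difference of -1.11 (SE 0.33). Without replicate 1 these 3 genes had differences of -1.68, -1.46 and -1.40 and adjusted p of 0.0351, 0.0377 and 0.0353. With 17 arrays, which keep replicate 1 and leave out replicate 2, the differences were -0.74, -0.78 and -0.95 and the adjusted p 0.277, 0.359 and 0.229.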

How the data were processed

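The authors deposited a log2 value for each probe set on each array, made with RMA per the submitters' processing notes. No RMA version was given. RMA subtracts background, quantile-normalizes and summarizes the probes, so all arrays take 1 distribution and a change shared by most transcripts would be lost. Of 31099 probe sets, 57 array controls were left out of tests. The platform annotation, updated by gene ID, gave 1 symbol for 20826 probe sets, several for 436 and none for 9780, and only the first kind were named. Where a gene had several probe sets, that of highest mean stood for it (14217 genes).

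The test was limma 3.58.1 (R 4.3.3) with eBayes on all 6 groups together (13 residual and 2.758 prior degrees of freedom). It was two-sided, adjusted by Benjamini-Hochberg over all 31042 probe sets, at a threshold of 0.05. Text values other than counts and shares are from this fit unless a setting is named. The fit was tested on simulated data. Because day 49 replicate 2 stands apart, values without it are given for the differences of 0.1 or more that it moved by over 1.5 times; "17 arrays" leaves out day 14 replicate 2 too. Scan dates and batches were not analysed here.

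The comparison, the genes and the lists were chosen with earlier results of these data known. Genes were named by rule: 5 of smallest p in each direction for day 49 against control with 19 and with 17 arrays and against earlier times, the 2 of smallest p in each list, and a set of injury and cell type genes whatever they showed. Other list members below or above all controls, genes of the tissue check, and Csrp3, RT1-A, Cox5a, Lrrc8b, Syt1 and Necab1 were named after their values were seen. Plots were drawn with matplotlib 3.10.9.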

Additional observations from a re-analysis of the deposited data

Results flagged for a closer look

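In 4 of 101 groups of 4 control arrays tested, 1 array lay far from the other 3, by a gap of more than 0.829 of the group's range; chance flags about 1 in 20 groups. Fos read 5.33 in control replicate 4 and 5.73 to 5.77 in the other 3. Grik1 read 8.80 in control replicate 3 and at least 8.98 in the others. Gabrd read 6.77 in control replicate 2 and 6.70 to 6.71 in the others, and Agt read 4.92 in control replicate 4 and 4.81 to 4.83 in the others. Groups of 3 arrays, day 49 among them, were not tested in this way.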

How the results depend on the processing

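The count of probe sets called between day 49 and control stayed at 0 without replicate 2, with 17 arrays, with only the compared groups, and with array centring, repeated quantile normalization, a filter on dim probe sets, 1 probe set per gene, eBayes with trend and robust settings, a minimum difference of 0.5, and the beta-actin covariate. Leaving out 1 control or day 49 array at a time gave 0 to 2435 calls, and leaving out 1 day 49 array at a time 0 to 3573 against the earlier times, the higher count in each case without day 49 replicate 1. Array weights gave 6514 and 8490, with 89.1% of the day 49 weight on replicate 3; the beta-actin covariate gave 1 call against the earlier times. Among fits chosen after seeing the data, weights with only the 2 groups gave 1854 against control. Leaving out day 49 replicate 1 and day 14 replicate 2 gave 9325 against control and 10605 against the earlier times; replicate 2 alone gave 17474 and 17582, and replicate 3 alone 2134 and 1134. The cause of these counts was not tested.

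Replicate numbers are shared by the groups, but the correlations of deviations of like-numbered control and day 49 arrays were -0.07, 0.42 and 0.12, so the numbers were not taken to pair the samples; with the replicate block the counts were 0 against control and 0 against the earlier times.

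Of 107 named differences, 8 changed sign in some setting. Atf3 became 0.14 without replicate 2 (18, 17 or 6 arrays), -0.21 to 0.14 with 1 array left out (0.04 without control replicate 4, 0.01 without day 49 replicate 1), 0.32 with array weights and 0.04 with the replicate block. Gfap ran from -0.07 to 0.11 with 1 array left out (-0.01 and -0.07 without control replicates 3 and 4, -0.05 without day 49 replicate 3), and became -0.07 with the block or repeated quantile normalization. Bcl11b became 0.10 without replicate 2 and 0.20 with array weights, which also gave 0.07 for Crabp2, -0.02 for Map3k6 and 0.04 for Hlf. Repeated quantile normalization gave 0.01 for Crabp2 and 0.00 for Gap43, and the beta-actin covariate 0.21 for Mbp. Array weights brought 71 of the 107 past the threshold, leaving out day 49 replicate 1 brought 56, and the beta-actin covariate 1. List medians moved by more than the spread between control arrays in 32 of 408 cases.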
